A study of Mus musculus with 2 samples.

Results

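Enteric nerves are built from neural crest cells that enter the foregut, and 2 signals from the gut wall act on them. GDNF and neurturin are secreted proteins that bind the co-receptors GFRA1 and GFRA2 and act through the receptor tyrosine kinase RET, while endothelin 3, cut to its active form by the endothelin converting enzyme ECE1, binds the receptor EDNRB. Loss of function in this system, RET above all, is known for Hirschsprung disease, in which part of the bowel lacks ganglia. The genes described here are the 8 that encode these proteins, out of 19550 genes counted: the ligand genes Gdnf, Nrtn and Edn3 with Ece1, and the receptor genes Ret, Gfra1, Gfra2 and Ednrb. They were chosen as a named list by their roles, with earlier results of these data known, and all 8 were found in the count table.

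The mice were wild type C57BL/6, with no further allele or treatment, and the esophagus, the gastroesophageal squamocolumnar junction (GE-SCJ) and the stomach were taken at embryonic day 15 (E15), E19, pup day 2 and adult week 8. Cells of each region and stage were marked with an oligonucleotide tag and sequenced in 1 library, which gave 7808 cells with 7808 distinct barcodes and a median of 10424.5 unique molecular identifiers (UMIs, counts of single RNA molecules) per cell. The adult stomach was not analysed here, which left 11 of 12 combinations. Mice were pooled within a tag (the labels give 6 at E15, 2 at E19, 2 pups and 3 adults, the methods 3 combined), so each combination is a single sample without replicates, and no difference was tested. Levels are in CPM (counts scaled to a library of 1e+06): for each group of cells, the pooled UMIs of a gene were divided by all pooled UMIs of the group and scaled. Brackets hold exact 95% Poisson intervals for CPM, exact Clopper-Pearson intervals for shares of cells and, for log2 ratios (1 UMI added to each sum), the exact interval conditional on both counts. All of them cover counting error only. A sum of 0 UMIs allows up to 3 counts, and for the 8 genes the level those would have is given with it.

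The ligand cells are those the study labelled Stromal (3442 cells, fibroblasts) and Smooth Muscle (1027 cells), and the receptor cells those labelled Neural (419 cells). Pooled over stages, each of these 3 labels was highest in its own markers, while pup Neural cells held more fibroblast than glia or neuron marker RNA (8067, 5638 and 379 CPM). Neuron markers such as Elavl4 and Tubb3 summed to 2510 CPM in Neural cells, and markers of glia and progenitors such as Sox10 and S100b to 3602 CPM, against 47.5 and 28.5 CPM in Stromal and 49.7 and 18.5 CPM in Smooth Muscle cells. Contractile markers such as Myh11 summed to 37146 CPM in Smooth Muscle cells and fibroblast markers such as Col1a1 to 26257 CPM in Stromal cells. Neural cells also held 2066 CPM of the fibroblast markers and 1582 CPM of columnar epithelial ones, the latter close to the 1493 CPM in Stromal and 1569 CPM in Smooth Muscle cells. Cajal cell markers summed to 159 CPM in Neural, 193 CPM in Stromal and 120 CPM in Smooth Muscle cells. Most of the Neural sum was Etv1 (147 CPM), with Kit at 8.28 and Ano1 at 3.74 CPM. In Stromal cells Kit and Ano1 were at 59.4 and 27.4 CPM, and in Smooth Muscle cells at 22.8 and 59.0 CPM. Each of the endothelial, immune, mesothelial, squamous and striated muscle lists summed to 153 CPM or less in those 3 labels.

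The genes lie on separate chromosomes apart from Gfra2 and Ednrb. On GRCm38 (GENCODE M21), Gdnf is at chr15:7810846-7837575 on the plus strand, Nrtn at chr17:56751325-56757530 on the minus strand, Edn3 at chr2:174760619-174784042 on the plus strand and Ece1 at chr4:137862237-137965229 on the plus strand. Ret is at chr6:118151745-118197718 on the minus strand, Gfra1 at chr19:58235604-58455909 on the minus strand, Gfra2 at chr14:70890120-70979838 on the plus strand and Ednrb at chr14:103814625-103844402 on the minus strand. RefSeq promoter windows were at hand for 6 of the 8 genes, and not for Ret and Gfra2. The 250 bases before the start site are shown for Gdnf and Edn3, whose RNA within the Stromal label lay mostly in the same cluster, described further on. They are also shown for Ednrb, which at E19 and in the pup differed in opposite directions between esophagus and stomach in fibroblasts and muscle. Gdnf is at chr15:7809798-7810047 (plus), Edn3 at chr2:174760369-174760618 (plus) and Ednrb at chr14:103843702-103843951 (minus, within the span of a longer GENCODE transcript), and none of the 3 windows overlaps an annotated exon. Capitals mark a TATA sequence (TATAAA) in Gdnf and an E-box (CAGCTG) in Edn3.
Gdnf: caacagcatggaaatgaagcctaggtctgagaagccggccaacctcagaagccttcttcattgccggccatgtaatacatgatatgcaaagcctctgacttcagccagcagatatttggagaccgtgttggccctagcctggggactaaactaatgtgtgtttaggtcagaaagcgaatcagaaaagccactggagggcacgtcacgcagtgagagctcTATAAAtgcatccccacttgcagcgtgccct
Edn3: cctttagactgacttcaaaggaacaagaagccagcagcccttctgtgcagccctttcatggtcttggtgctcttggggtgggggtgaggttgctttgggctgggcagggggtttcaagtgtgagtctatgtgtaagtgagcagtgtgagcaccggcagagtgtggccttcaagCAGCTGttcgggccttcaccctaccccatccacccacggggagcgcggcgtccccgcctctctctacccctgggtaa
Ednrb: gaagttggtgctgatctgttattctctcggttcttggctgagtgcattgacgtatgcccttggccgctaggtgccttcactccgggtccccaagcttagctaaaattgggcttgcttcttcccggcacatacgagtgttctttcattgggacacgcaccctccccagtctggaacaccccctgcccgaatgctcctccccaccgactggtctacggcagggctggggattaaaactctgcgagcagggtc

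On both strands, TATAAA was present in 12.4% of 32851 promoter windows of the same 250 bases, and among the windows of these genes it was found in the Gdnf window shown, at position -31 from the start, and in none of the other 9. CAGCTG was present in 13.0% of all windows. It was found in Edn3 at -77, Nrtn at -104, Gfra1 at -90 and in 2 of the 4 Ece1 windows (at -245 and -145), and in neither the 2 Gdnf windows nor that of Ednrb. The SOX core sequences ACAAAG (16.5% of all windows) and ACAATG (10.7%) were searched because SOX10 is a regulator of enteric progenitors. The windows of Gdnf, Nrtn, Edn3, Gfra1 and Ednrb held neither, and 1 Ece1 window held ACAATG at -172. These are descriptions of letters in short windows.

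Pooled over regions and stages, the receptor genes had their highest levels in Neural cells. Ret stood at 98.8 CPM (89.0 to 109) in Neural cells against 0.585 CPM (0.352 to 0.914) in Stromal cells, a log2 ratio of 7.33 (6.74 to 8.15). The size of that ratio rests on few Stromal UMIs (19, in 17 of 3442 cells), and was 6.16 as a mean of single-cell CPM. Those UMIs were not spread evenly. Ret was at 30.9 CPM in Stromal cells of the adult esophagus and at 2.54 CPM or less in the other Stromal groups of at least 20 cells. Without the 1% of cells with the most Ret the log2 ratio was 11.21. That step removed every Stromal cell with Ret, so the value is set by the 1 UMI added to the Stromal sum. Ednrb was at 1068 CPM (1035 to 1102) in Neural cells and was not confined to them, with 202 CPM in Smooth Muscle, 158 CPM in Stromal, 129 CPM in endothelial and 97.2 CPM in immune cells. In columnar cells, the larger squamous label and Stromal-2 cells (a second stromal label) Ednrb lay between 2.23 and 5.16 CPM, and in the smaller squamous label at 12.6 CPM. Its Neural over Stromal log2 ratio was 2.76 (2.70 to 2.82).

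Gfra1, the co-receptor for GDNF, had 236 CPM (220.5 to 252) in Neural, 49.4 CPM in Smooth Muscle and 19.1 CPM in Stromal cells, with a Neural over Stromal log2 ratio of 3.63 (3.48 to 3.78). Gfra2, the co-receptor for neurturin, had 58.7 CPM (51.2 to 67.0) in Neural, 17.3 CPM in Stromal and 14.3 CPM in Smooth Muscle cells, a log2 ratio of 1.77 (1.53 to 1.99). Each of the 4 receptor genes thus had its highest level, over the 9 labels, in Neural cells. At their own depth 16.7% of Neural cells held a UMI of Ret, 70.6% of Gfra1, 26.3% of Gfra2 and 84.5% of Ednrb. Thinned to 5000 UMIs per cell (83 of 419 shallower cells left out), the shares were 14.9%, 55.7%, 17.0% and 81.5%.

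For free RNA in the droplets, immune cells (median 8266.5 UMIs, against 7900 in Neural cells) gave 0.847% of cells with a UMI of Ret, 1.69% of Gfra1 and 4.52% of Gfra2. Since 32.5% of immune cells held a UMI of Ednrb, columnar cells (median 25118 UMIs) were read for that gene, with 7.99% of cells.

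The ligand genes were nearly absent from Neural cells. Gdnf had 0 UMIs in the 419 Neural cells, where 3 counts would be 0.801 CPM, so that Stromal cells held it at a level at least 15.7-fold higher. Edn3 had 4 UMIs (1.07 CPM, 0.291 to 2.73) and Nrtn 16 UMIs (4.27 CPM, 2.44 to 6.94). Of the 8 genes, 4 (Ret, Gfra1, Gfra2 and Ednrb) were at least 2-fold higher in Neural than in Stromal cells and 3 (Gdnf, Nrtn and Edn3) at least 2-fold lower. Over the 15060 genes with at least 20 UMIs in both labels together, 14.0% were higher and 12.8% lower by that much. Ece1 had 34.2 CPM in Neural cells, a log2 ratio to Stromal of -0.38 (-0.66 to -0.13).

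**Figure D1:**
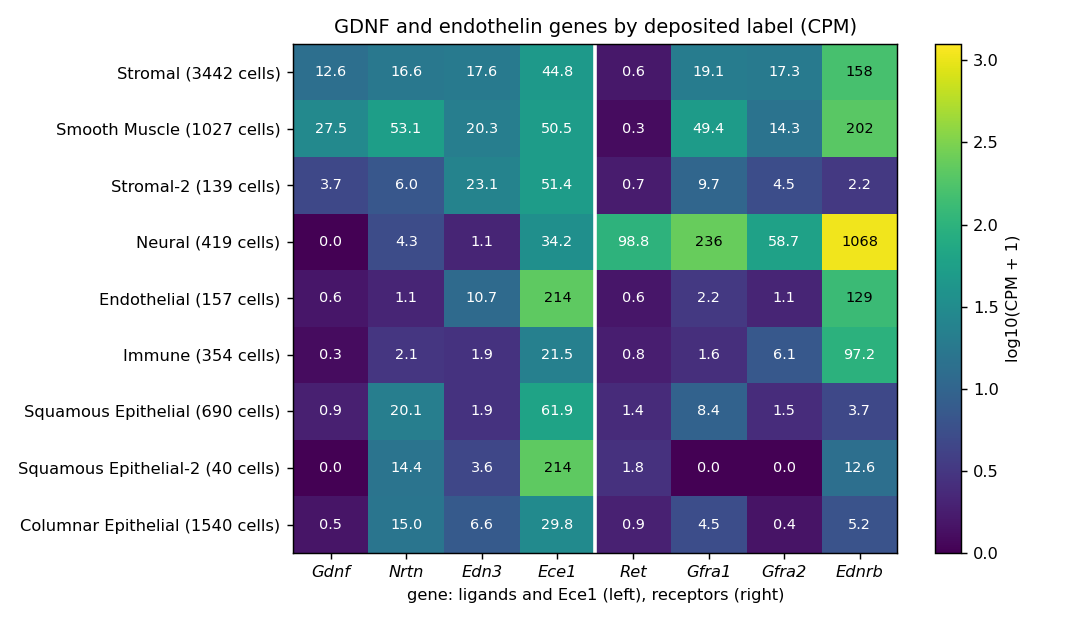
Level of each of the 8 genes (columns) in each of the 9 deposited labels (rows, with the number of cells). Colour is log10(CPM + 1) and the printed values are CPM, each from 1 pooled library. Neural cells hold the highest value of all 4 receptor genes and 0.0 CPM of Gdnf.

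Muscle and fibroblasts shared the ligands unequally. Gdnf was at 27.5 CPM (24.4 to 30.8) in Smooth Muscle and 12.6 CPM (11.4 to 13.9) in Stromal cells, and at 3.72 CPM or less in the other 7 labels. Nrtn was at 53.1 CPM (48.8 to 57.6) in Smooth Muscle and 16.6 CPM (15.3 to 18.1) in Stromal cells. Unlike Gdnf it was also found in epithelium, with 20.1 CPM in the larger squamous label and 14.97 CPM in columnar cells, levels like that of the fibroblasts. Edn3 differed little between both labels, with 20.3 CPM (17.7 to 23.1) in Smooth Muscle and 17.6 CPM (16.2 to 19.1) in Stromal cells, and Stromal-2 cells lay in the same range at 23.1 CPM (15.7 to 32.8). Endothelial cells followed with 10.7 CPM (6.42 to 16.7) and columnar cells with 6.64 CPM (5.89 to 7.45).

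The Smooth Muscle over Stromal log2 ratios were 1.13 (0.91 to 1.35) for Gdnf, 1.67 (1.502 to 1.85) for Nrtn, 0.21 (-0.03 to 0.43) for Edn3 and 0.18 (0.03 to 0.32) for Ece1. With Gfra1 at 1.37 (1.20 to 1.54), 3 of the 8 genes were at least 2-fold higher in muscle and 0 at least 2-fold lower, beside 6.59% higher and 12.0% lower among 15120 genes. The mean of single-cell CPM, in place of summed UMIs, gave 0.58 for Gdnf. With each region and stage weighted equally, Edn3 was at -0.049, and higher in muscle in 3 of 10 groups.

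Shares of cells with a UMI were low for the ligands. Gdnf was found in 20.7% of Smooth Muscle and 8.25% of Stromal cells (11.1% and 4.69% thinned to 5000 UMIs, with 198 and 502 shallower cells left out). Immune cells gave 0.282% for Gdnf and 1.41% for Edn3. Edn3 was found in 12.3% and 12.1% of both labels and Nrtn in 35.8% and 12.4%, against 2.26% of immune cells for Nrtn.

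Ece1, which cuts endothelin precursors, was expressed in every label. It was highest in endothelial cells (214 CPM, 193 to 237) and in the 40 cells of the smaller squamous label (214 CPM, 178 to 257), and lay between 21.5 CPM (immune) and 61.9 CPM (the larger squamous label) elsewhere. In endothelial cells E15 had 171 CPM (143 to 202), E19 160.4 CPM (134 to 190.1) and the 21 pup cells 731 CPM (584 to 903), and the 21 adult cells had 501 CPM (340.2 to 711). The E15 over pup log2 ratio was -2.10 (-2.50 to -1.69). From E15 through E19 to the pup, Smooth Muscle cells had 44.3, 36.8 and 119.9 CPM and Stromal cells 40.4, 45.2 and 64.7 CPM. Pup levels were thus above the prenatal ones in these 3 labels.

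By region and stage, Gdnf had its highest levels in the E15 stomach. In Stromal cells at E15 it was at 33.5 CPM (28.0 to 39.9) in the stomach, 8.49 CPM (5.81 to 12.0) in the GE-SCJ and 13.4 CPM (9.97 to 17.6) in the esophagus. At E19 the same regions had 13.3, 9.44 and 6.30 CPM. In the pup they had 4.48 CPM (0.542 to 16.2), 2.54 CPM (0.0643 to 14.2) and 9.56 CPM (3.51 to 20.8), from 2, 1 and 6 UMIs, so that the pup regions could not be ordered. The stomach was the highest of the 3 regions at E15 and E19, with stomach over esophagus log2 ratios of 1.31 (0.85 to 1.82) and 1.06 (0.54 to 1.63), though its E19 interval (10.7 to 16.4) overlapped that of the GE-SCJ (7.09 to 12.3).

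In Smooth Muscle cells the highest Gdnf values before birth were again those of the stomach, but with intervals that overlap those of the other regions. At E15 Gdnf was at 46.6 CPM (36.8 to 58.2) in the stomach, 38.7 CPM (30.0 to 49.1) in the GE-SCJ and 27.3 CPM (18.6 to 38.8) in the esophagus. The stomach interval overlaps both others. At E19 the values were 23.8 CPM (17.4 to 31.8), 20.3 CPM (14.99 to 26.8) and 15.1 CPM (6.09 to 31.2), which overlap. In the pup the GE-SCJ had 29.8 CPM (17.4 to 47.8), from 17 UMIs in 16 of 119 cells, above the stomach with 3.58 CPM (0.434 to 12.9). The 22 cells of the pup esophagus had 1 UMI, or 8.72 CPM (0.221 to 48.6), and could not be placed against either. The 30 adult esophagus cells had 0 UMIs, where 3 counts would be 17.5 CPM.

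With Stromal and Smooth Muscle cells summed, Gdnf had 24.3 CPM at E15, and 11.9 and 10.7 CPM in the E19 and pup cells. The E15 over pup log2 ratio was 1.14 (0.64 to 1.78). Its size depended on the regions summed: without stomach cells it was 0.19, and without GE-SCJ cells 2.01. Label by label, E15 values were also above pup values outside the stomach, with overlapping intervals. In Stromal cells they were 13.4 against 9.56 CPM (esophagus) and 8.49 against 2.54 CPM (GE-SCJ). In Smooth Muscle cells they were 27.3 against 8.72 CPM and 38.7 against 29.8 CPM. The part of the label mix in the summed ratio was not tested. Of the 7 genes with at least 20 UMIs here, Gdnf was the 1 at least 2-fold higher at E15 and Ece1 the 1 at least 2-fold lower (-1.12, -1.33 to -0.90), beside 13.0% and 11.5% of 13779 genes. Ret had 10 UMIs over both stages.

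Among the Stromal and Smooth Muscle groups, Edn3 was highest in the E15 esophagus. Stromal cells there had 37.5 CPM (31.6 to 44.2), against 13.8 CPM (10.3 to 18.1) in the GE-SCJ and 21.5 CPM (17.1 to 26.7) in the stomach. Smooth Muscle cells of the E15 esophagus had 72.3 CPM (57.5 to 89.8), against 20.8 CPM (14.6 to 28.8) in the GE-SCJ and 19.96 CPM (13.7 to 28.0) in the stomach. The esophagus was thus above both other regions in both labels at E15, whereas the highest Gdnf values were in the stomach, with overlapping intervals in muscle.

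At E19 the esophageal muscle no longer held this level. Its 42 cells had 1 UMI of Edn3, or 2.16 CPM (0.0547 to 12.0), beside 19.03 CPM (13.9 to 25.4) in the GE-SCJ and 6.22 CPM (3.21 to 10.9) in the stomach. Stromal cells at E19 had 16.9 CPM (14.0 to 20.2) in the esophagus, 12.9 CPM (10.2 to 16.2) in the GE-SCJ and 11.3 CPM (8.92 to 14.2) in the stomach. In the pup, Stromal groups lay between 12.7 and 20.7 CPM and Smooth Muscle groups between 7.17 and 8.78 CPM, with intervals that overlap.

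Over both labels Edn3 had 26.9 CPM at E15, and 13.5 and 13.3 CPM in the E19 and pup cells, an E15 over pup log2 ratio of 0.98 (0.53 to 1.55). With E15, E19 and pup summed, the stomach over esophagus log2 ratio was -0.93 (-1.19 to -0.69) for Edn3 and 1.09 (0.81 to 1.39) for Gdnf. Gfra1 at 1.21 (0.97 to 1.47) and Gdnf were the 2 of 7 genes at least 2-fold higher in the stomach, and 0 were at least 2-fold lower, beside 5.40% and 4.03% of 14410 genes. With each stage and label weighted equally, Gdnf was at 0.64, below 2-fold, and higher in the stomach in 4 of 6 groups.

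Nrtn varied little by region before birth. In Smooth Muscle cells it was between 48.5 and 69.7 CPM at E15 and between 53.3 and 62.7 CPM at E19, and in the pup between 29.8 CPM (17.4 to 47.8, GE-SCJ) and 44.8 CPM (29.0 to 66.1, stomach). In Stromal cells it was between 7.96 and 11.02 CPM at E15 and between 17.8 and 24.4 CPM at E19, an E15 over E19 log2 ratio of -1.10 (-1.43 to -0.80) with regions summed. Pup Stromal cells had 9.56 CPM (3.51 to 20.8) in the esophagus, 22.9 CPM (10.5 to 43.4) in the GE-SCJ and 26.9 CPM (13.9 to 46.9) in the stomach, which overlap. The stomach over esophagus log2 ratio of Nrtn, over both labels and 3 stages, was 0.05 (-0.16 to 0.27).

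**Figure D2:**
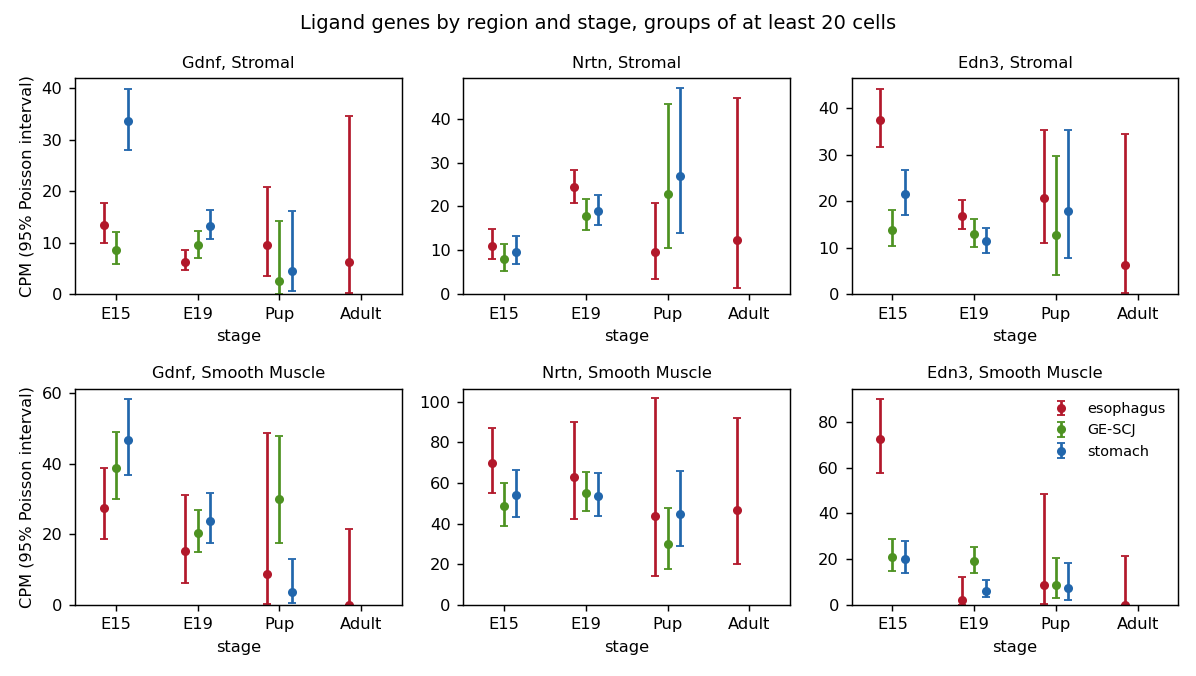
CPM of Gdnf, Nrtn and Edn3 (columns) in Stromal (top) and Smooth Muscle (bottom) cells at 4 stages, with esophagus in red, GE-SCJ in green and stomach in blue. Points are pooled groups of at least 20 cells and bars are 95% Poisson intervals. In Stromal cells Gdnf is highest in the E15 stomach, while in E15 muscle the stomach interval overlaps both others. Edn3 is highest in the E15 esophagus. Gdnf in pup muscle is higher in the GE-SCJ (29.8 CPM) than in the stomach (3.58 CPM), with the esophagus interval spanning both.

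Within the fibroblasts, 1 of the study's own clusters held most of the RNA of Gdnf and Edn3, but not of Nrtn. The Stromal label joins clusters 0 (1409 cells, nearly all from the GE-SCJ and stomach before birth), 1 (891 cells, 882 of them from the esophagus), 3 (812 cells, 188 from the esophagus, 301 from the GE-SCJ and 323 from the stomach) and 9 (330 cells, of which 282 were pup cells). The clusters were built from these same genes and cells, so their values are a description. Cluster 3 had 36.7 CPM of Gdnf (32.5 to 41.4), while clusters 0, 1 and 9 had 5.67, 4.95 and 6.96 CPM. Edn3 was at 40.7 CPM (36.2 to 45.6) in cluster 3 and at 6.56, 17.9 and 10.8 CPM in the same other clusters.

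With 23.6% of Stromal cells and 22.7% of their UMIs, cluster 3 held 66.2% of the Stromal UMIs of Gdnf (61.4 to 70.8) and 52.4% of those of Edn3 (48.2 to 56.5). In 53 of its 812 cells both of these genes were found. Its share of the UMIs of Nrtn was 14.4% (11.6 to 17.7), below its share of all UMIs. It also held 76.9% of the Stromal UMIs of Gfra1 and 66.7% of those of Gfra2, and 3.84% of those of Ednrb. Gdnf, Edn3 and both co-receptor genes thus had most of their Stromal UMIs in the same cluster, while Nrtn and Ednrb had most of theirs outside it.

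Cluster 3 was also the Stromal cluster with the most Kit, the receptor gene that marks interstitial cells of Cajal, at 232 CPM against 6.5 to 27.8 CPM in the other 3. Ano1, a chloride channel gene of Cajal cells, was at 49.1 CPM there and at 7.6 to 25.9 CPM in the others, and Etv1 at 181 CPM against 17.1 to 128 CPM. Its fibroblast markers summed to 19557 CPM, between those of clusters 0 (17700.4 CPM) and 9 (30625 CPM), its neuron markers to 130.3 CPM (12.6 to 38.4 CPM in the other 3) and its glia and progenitor markers to 32.6 CPM. The part of Cajal or neuronal RNA in its ligand levels was not tested.

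At E15 the stomach excess of Gdnf was present inside cluster 3, which had 75.2 CPM (61.9 to 90.5) in the stomach, 22.2 CPM (13.5 to 34.3) in the GE-SCJ and 22.5 CPM (15.5 to 31.7) in the esophagus, a stomach over esophagus log2 ratio of 1.71 (1.17 to 2.35). At E19 the same cluster had 46.5 CPM (35.5 to 59.8), 15.7 CPM (10.4 to 22.7) and, in 50 cells of the esophagus, 44.3 CPM (24.8 to 73.1), so that inside it the E19 stomach was above the GE-SCJ and not distinguishable from the esophagus. The esophageal excess of Edn3 at E15 was smaller inside the cluster, with 56.0 CPM (44.5 to 69.5) in the esophagus, 31.1 CPM (20.6 to 44.9) in the GE-SCJ and 46.3 CPM (36.1 to 58.7) in the stomach. With regions summed, the cluster had 42.8 CPM of Gdnf at E15 and 30.2 CPM at E19, and it held 13 pup cells, so the pup values of the label came mostly from cluster 9. Stage and cluster cannot be told apart for the pup fibroblasts.

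The Smooth Muscle label joins cluster 4 (779 cells, 328 at E15 and 381 at E19) and cluster 11 (248 cells, of which 199 were from the pup). Gdnf was at 29.2 CPM (25.9 to 32.8) in cluster 4 and 14.2 CPM (8.44 to 22.5) in cluster 11, and Nrtn at 55.3 and 36.4 CPM. The pup GE-SCJ value of Gdnf came from cluster 11, with 35.0 CPM (19.6 to 57.8) in 95 cells, beside 2.11 CPM (0.0534 to 11.7) in 101 pup stomach cells of the same cluster.

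**Figure D3:**
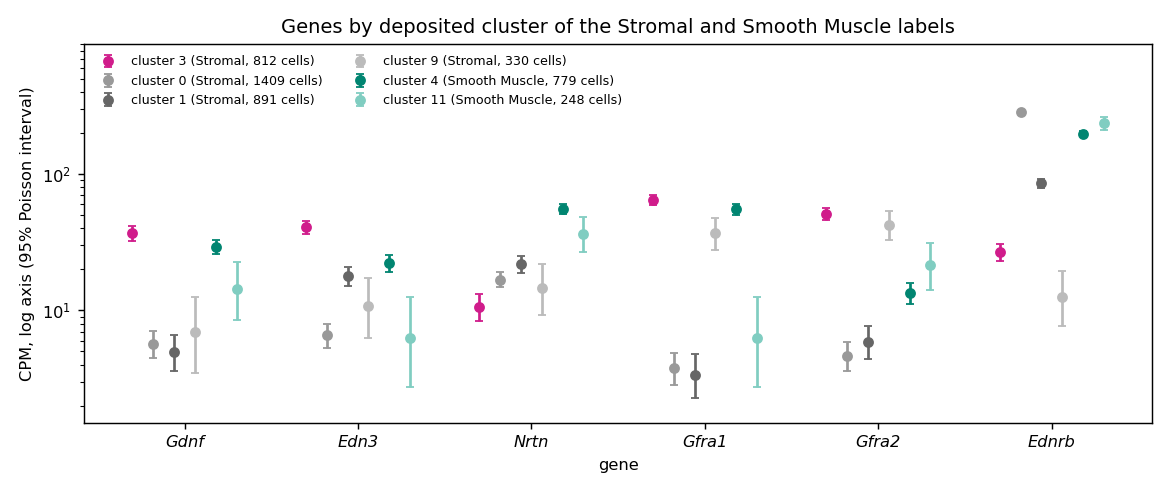
CPM on a log axis of 6 of the genes in the 4 clusters of the Stromal label and the 2 clusters of the Smooth Muscle label, with 95% Poisson intervals. Cluster 3, in magenta, is above clusters 0, 1 and 9 for Gdnf and Edn3 and far above clusters 0 and 1 for Gfra1 and Gfra2, while cluster 0 holds most Ednrb (284 CPM).

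The co-receptor genes in fibroblasts and muscle varied with region too. Gfra1 in Stromal cells was highest in the E15 stomach at 53.7 CPM (46.6 to 61.6), beside 26.8 CPM in the GE-SCJ and 11.8 CPM in the esophagus, and at E19 it was at 15.9, 11.9 and 5.30 CPM. In Smooth Muscle cells it was between 65.3 and 98.7 CPM at E15, between 8.65 and 39.7 CPM at E19 and at 17.9 CPM or less in the pup. Gfra2 in Smooth Muscle cells before birth was higher in the esophagus, with 37.9 CPM (27.5 to 51.1) at E15 and 43.2 CPM (26.4 to 66.8) at E19, than in the stomach, with 3.02 CPM (0.982 to 7.06) and 3.11 CPM (1.14 to 6.76). In pup muscle it was at 17.4 CPM (2.11 to 63.0) in the esophagus and 32.2 CPM (19.1 to 51.0) in the stomach, which overlap. In Stromal cells Gfra2 was between 6.16 and 27.8 CPM before birth and between 17.5 and 61.0 CPM in the pup.

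At E19 and in the pup, Ednrb outside the nerves differed in opposite directions between esophagus and stomach in muscle and fibroblasts. In Smooth Muscle cells at E15 it was at 362 CPM (328 to 398) in the esophagus, 136 CPM (119 to 154) in the GE-SCJ and 29.0 CPM (21.4 to 38.5) in the stomach. At E19 the same regions had 1005 CPM (916 to 1101, 42 cells), 185 CPM (168 to 203) and 55.9 CPM (45.9 to 67.5). The level of the 42 esophageal muscle cells was thus in the range of Neural cells. In the pup the esophagus had 942 CPM (773 to 1137, 22 cells), the GE-SCJ 258 CPM and the stomach 349 CPM. Neural cells of the pup esophagus had 457 CPM, below the muscle cells there. In the same order of regions, cluster 4 held 19, 24 and 12 of the pup muscle cells and cluster 11 held 3, 95 and 101. Region and cluster thus cannot be told apart between the esophagus and both other regions in pup muscle. The GE-SCJ and stomach cells came mostly from the same cluster. Adult esophageal muscle had 75.8 CPM of Ednrb, with 7 cells from cluster 4 and 23 from cluster 11. Stage and cluster thus cannot be told apart between pup and adult esophageal muscle.

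In Stromal cells the regional order of Ednrb was turned at E19 and in the pup. At E15 the esophagus had 120.5 CPM, the GE-SCJ 133 CPM and the stomach 135 CPM, which lie close together. At E19 they had 49.7 CPM (44.6 to 55.2), 204 CPM (192 to 216) and 309 CPM (296 to 323). In the pup the levels were 11.1 CPM (4.48 to 23.0), 22.9 CPM (10.5 to 43.4) and 80.6 CPM (56.5 to 112). Adult esophageal Stromal cells had 49.5 CPM. The stomach over esophagus log2 ratios at E19 were 2.63 (2.47 to 2.80) in Stromal and -4.16 (-4.48 to -3.86) in Smooth Muscle cells. Within cluster 4 alone, E19 esophagus (41 cells) over stomach (154 cells) was 4.27 (3.97 to 4.61). Of the E19 Stromal cells of the esophagus, 678 came from cluster 1 and 4 from cluster 0. Those of the E19 stomach held 3 from cluster 1 and 528 from cluster 0. Region and cluster thus cannot be told apart for most E19 fibroblasts.

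**Figure D4:**
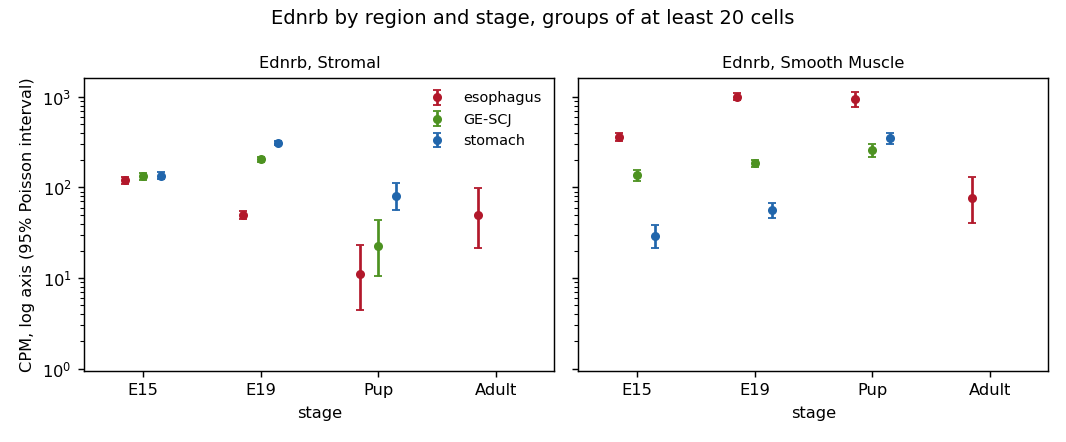
Ednrb in CPM on a log axis, in Stromal (left) and Smooth Muscle (right) cells at 4 stages, with esophagus in red, GE-SCJ in green and stomach in blue. Points are pooled groups of at least 20 cells with 95% Poisson intervals. At E19 the order runs from 49.7 CPM in the esophagus to 309 CPM in the stomach in Stromal cells, and from 1005 CPM down to 55.9 CPM in Smooth Muscle cells.

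The makeup of the Neural label differed by stage, so the receptor genes are given for both kinds of cell in it. From E15 and E19 to pup and adult it held 202, 145, 59 and 13 cells, at median depths of 9895.5, 7410, 4331 and 1796 UMIs. Neural cells were split by which of both fixed marker lists, neuron or glia and progenitor, had more UMIs in a cell, a rule chosen after values had been seen. None of the 8 genes is on either list. At E15 67 cells were neuron-like and 133 glia-like (2 were tied), at E19 21 and 124, and in the pup 0 and 59. The 59 pup cells called glia-like are those with the 8067 CPM of fibroblast markers given above. In the pup 0 of 59 cells allows a share of neuron-like cells of up to 5.08%. Over all stages 6 cells lay within 2 UMIs of the boundary. Neuron-like cells had a median of 2 UMIs of the glia list and 3 of the fibroblast list, and glia-like cells a median of 4 UMIs of the neuron list and 5 of the fibroblast list. In the 13 adult cells Elavl4 was at 0.

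Ret, the signalling receptor of the GDNF family, was a gene of the neuron-like cells. It had 258 CPM (225 to 295) in those of E15 and 299 CPM (234 to 377) at E19, and 42.9 CPM (32.6 to 55.5), 2.05 CPM (0.248 to 7.40) and 0 UMIs in glia-like cells at E15, E19 and in the pup. The neuron-like over glia-like log2 ratio was 2.57 (2.17 to 3.03) at E15 and 6.62 (5.28 to 10.26) at E19. At E15 37 of 67 neuron-like cells and 19 of 133 glia-like cells held a UMI of Ret, and at E19 10 of 21 and 2 of 124. Thinned to 5000 UMIs, the E15 shares were 43.3% and 8.06%, and at E19 42.9% and 0 of 105 cells.

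In the 13 adult and 59 pup Neural cells Ret had 0 UMIs, where 3 counts would be 100.4 and 10.9 CPM. Over the whole Neural label Ret had 133 CPM (119 to 149) at E15, with 60.2 CPM (47.2 to 75.7) by E19, and against the pup E15 was at least 12.2-fold higher. Within glia-like cells alone the E15 level was at least 3.92-fold higher than in the pup. At E15 67 of 202 and at E19 21 of 145 Neural cells were neuron-like. Ret was at 258 and 299 CPM in them, and at 42.9 and 2.05 CPM in glia-like cells. The pup had 0 neuron-like cells, so their level there could not be read. The parts of cell makeup and of level per cell in the stage difference of the label were not tested. By region at E15, Ret in Neural cells was at 123 CPM (100.04 to 149) in the esophagus, 96.5 CPM (70.1 to 129) in the GE-SCJ and 161 CPM (136 to 188) in the stomach, and at E19 at 67.0 CPM in the GE-SCJ and 63.3 CPM in the stomach, while the 11 cells of the E19 esophagus had 0 UMIs, where 3 counts would be 30.7 CPM. The part of the neuron-like share in these regional values was not tested.

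Gfra1 and Ednrb were, by contrast, higher in the glia-like cells. Gfra1 had 257 CPM (231 to 285) in glia-like and 52.3 CPM (38.2 to 70.0) in neuron-like cells at E15, and 279 CPM (247 to 314) and 67.4 CPM (38.5 to 109) at E19. With cells split by Elavl4 against Sox10, the neuron-like levels at E15 and E19 were 102 and 116 CPM, still below the 252 and 284 CPM of glia-like cells. In the pup, glia-like cells had 715 CPM (618 to 822). The E15 over pup log2 ratio in glia-like cells was -1.48 (-1.73 to -1.22), while the E15 and E19 intervals overlapped.

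In glia-like cells Ednrb went from 1691 CPM (1622 to 1762) at E15 through 1097 CPM (1032 to 1164) at E19 to 594 CPM (507 to 693) in pups. Neuron-like cells had 363 CPM (324 to 405) of it at E15, and those of E19 had 615 CPM (519 to 723). With regions summed, the stages thus ran downward in the glia-like cells. The pup Neural cells, all glia-like, had 457 CPM in the esophagus and 812 CPM in the stomach. Neural cells of the E19 stomach, neuron-like ones included, had 954 CPM. The part of region in the stage difference was not tested. In neuron-like cells the stage difference rested on how cells were split, since Elavl4 against Sox10 (an alternative chosen after seeing the data) gave 672 CPM at E15 and 753 CPM at E19 in them, and 1783 and 1120.1 CPM in glia-like cells. The neuron-like over glia-like log2 ratio was -2.22 (-2.40 to -2.05) at E15 and -0.83 (-1.09 to -0.58) at E19. For the label as a whole, Ednrb had 1172 CPM (1128 to 1218) at E15, and 1002 CPM (947 to 1060.3) and 594 CPM in the E19 and pup cells, an E15 over pup log2 ratio of 0.97 (0.75 to 1.22). Within glia-like cells it was 1.4998 (1.28 to 1.75). The whole-label ratio fell below its interval in cells whose own marker list held at least as many UMIs as any other list. Pup Neural cells held more fibroblast than glia marker RNA, and the part of that RNA in the stage difference was not tested.

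Gfra2 differed from Gfra1 in its split. At E15 neuron-like cells had 46.5 CPM (33.2 to 63.4) and glia-like cells 32.6 CPM (23.7 to 43.7), a log2 ratio of 0.52 (-0.14 to 1.17) that includes 0, and -0.24 (-0.89 to 0.42) where Elavl4 against Sox10 split the cells. Glia-like cells then had 83.01 CPM (65.9 to 103) at E19 and 171 CPM (126 to 228) in the pup, with neuron-like cells at 16.8 CPM (4.59 to 43.1) at E19. By region at E19, Neural cells had 104 CPM of Gfra2 (80.9 to 133) in the GE-SCJ and 21.1 CPM (10.1 to 38.8) in the stomach. The part of the mix of neuron-like and glia-like cells in this difference was not tested.

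Of the 5 genes with at least 20 UMIs in Neural cells at E15 and in the pup, Ret was at least 2-fold higher at E15 and Gfra1 and Gfra2 at least 2-fold lower, beside 17.0% higher and 14.6% lower among 10135 genes. The Neural E15 over pup log2 ratios were -2.02 (-2.27 to -1.76) for Gfra1 and -2.20 (-2.72 to -1.64) for Gfra2. Gfra1 in pup Stromal cells was at 35.4 CPM and Gfra2 at 38.1 CPM. Fibroblast markers in Neural cells summed to 1008, 2651 and 8067 CPM from E15 through E19 to the pup. The part of fibroblast RNA in these differences was not tested.

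The receptors met in the same cells to different extents. Of the 37 neuron-like cells with Ret at E15, 18 also had a UMI of Gfra1, 6 of Gfra2 and 27 of Ednrb, and 13 had neither co-receptor. Of the 19 glia-like cells with Ret at E15, 18 had Gfra1, 0 had Gfra2 and 19 had Ednrb. Gfra1 and Ednrb were common in glia-like cells with or without Ret. Ednrb but no Ret was found in 110 of 133 of them at E15. Among the 67 neuron-like cells of E15, 4 had Gfra1 but no Ret and 9 had Ednrb but no Ret. Glia-like cells with Gfra1 but no Ret numbered 94 of 133 at E15, 93 of 124 at E19 and 52 of 59 in the pup. Most glia-like cells thus carried the GDNF co-receptor without a detected UMI of Ret, at depths where a low level may be missed.

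**Figure D5:**
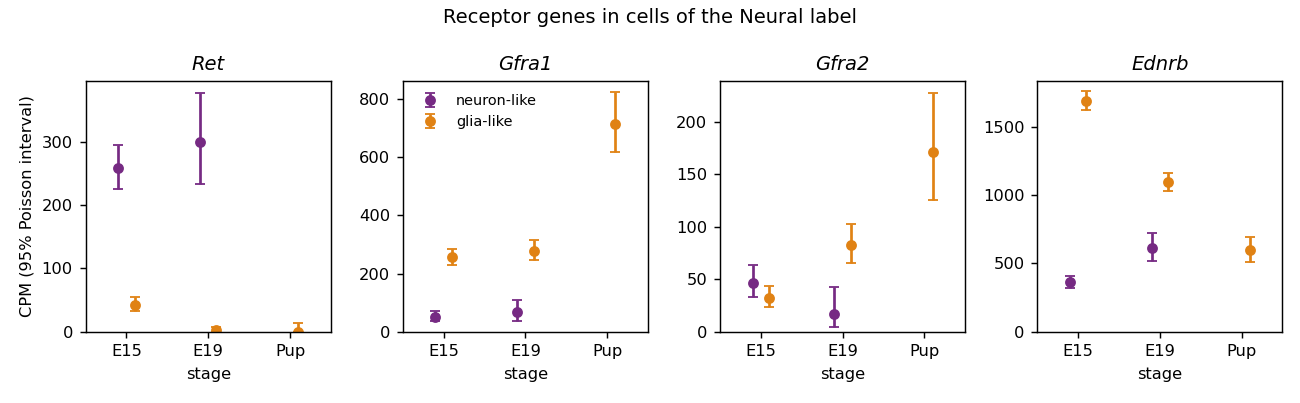
CPM of Ret, Gfra1, Gfra2 and Ednrb in neuron-like (purple) and glia-like (orange) cells of the Neural label at E15, E19 and pup, with 95% Poisson intervals. Each point is a pooled group of at least 20 cells, and the pup has no neuron-like cells. Ret is highest in neuron-like cells (258 and 299 CPM). With regions summed, Ednrb in glia-like cells runs from 1691 CPM at E15 to 594 CPM in the pup, whose cells held more fibroblast than glia marker RNA.

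Ligand and receptor levels side by side show how the regions compared at E15. In the stomach, Gdnf was at 33.5 CPM in Stromal and 46.6 CPM in Smooth Muscle cells, and Neural cells had 161 CPM of Ret and 170.2 CPM of Gfra1. In the esophagus, Gdnf was at 13.4 and 27.3 CPM, and Neural cells had 123 CPM of Ret and 192 CPM of Gfra1. The Neural stomach over esophagus log2 ratios were 0.38 (0.02 to 0.77) for Ret and -0.18 (-0.50 to 0.15) for Gfra1. For the other signal, Edn3 was at 37.5 and 72.3 CPM in the esophagus and 21.5 and 19.96 CPM in the stomach, while Neural Ednrb was at 1114 CPM (1043 to 1188) in the esophagus, 892 CPM (808 to 983) in the GE-SCJ and 1360.2 CPM (1287 to 1437) in the stomach, a stomach over esophagus log2 ratio of 0.29 (0.17 to 0.41). These Neural values join neuron-like and glia-like cells. The part of their mix in the regional differences was not tested.

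Other genes of the pathways were taken from 3 lists, and each list is described by counts and medians beside all genes of the same comparison. Of 22 genes of the GDNF family pathway, 20 were in the table, and 5 were at least 2-fold higher and 3 at least 2-fold lower in Neural than in Stromal cells (median log2 ratio 0.09). Over all genes of that comparison 14.0% were higher and 12.8% lower (median 0.16). Past 4-fold were Gfra3, the artemin co-receptor (30.2 against 0.0924 CPM, log2 7.95, 6.77 to 10.65), Dusp6, a phosphatase induced by ERK signalling (280.4 against 26.1 CPM), and the adaptor gene Dok6 (6.68 against 0.863 CPM). The adaptor gene Dok5 had 0 UMIs in Neural cells and was at least 5.38-fold higher in Stromal cells.

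Between muscle and fibroblasts, 1 gene of the family was higher and 6 of 19 lower in muscle (median -0.40), beside 6.59% and 12.0% of all genes (median -0.17), with Dok5 and Etv4 past 4-fold lower at -2.97 and -2.23. Between E15 and pup in both labels, 4 of 19 were higher and 5 lower (median -0.20), beside 13.0% and 11.5% of all genes (median 0.07). Gfra4, the persephin co-receptor, was at 11.1 against 1.84 CPM, Dok5 at least 4.20-fold higher at E15, and Dok6 at least 1.76-fold higher. The gene of the ligand artemin, Artn, was at 4.53 CPM in the stomach and 0.457 CPM in the esophagus (log2 3.11, 2.11 to 4.804), and here 3 of 19 were higher and 1 lower (median 0.03), beside 5.40% and 4.03% of all genes (median 0.11). In Neural cells at E15 over pup, 0 of 13 were higher and 5 lower (median -0.84), beside 17.0% and 14.6% of all genes (median 0.07), with the feedback inhibitor gene Spry1 past 4-fold at 25.6 against 120.4 CPM.

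Of 7 further endothelin genes, 5 had at least 20 UMIs in Neural and Stromal cells, with 0 higher and 2 lower in Neural cells (median -0.71), beside 14.0% and 12.8% of all genes (median 0.16). The 2 were Ednra, which encodes the other endothelin receptor and was at 81.1 CPM in Stromal and 5.87 CPM in Neural cells (log2 -3.72, -4.46 to -3.19), and Edn1 (log2 -1.07, -1.94 to -0.44). Between muscle and fibroblasts 2 of 6 were higher and 2 lower (median 0.17), beside 6.59% and 12.0% of all genes (median -0.17), with the ligand gene Edn2 at 7.00 against 0.462 CPM and Ece2, a second converting enzyme gene, at 0.829 against 5.67 CPM. At E15 over pup in both labels 2 of 6 were higher and 0 lower (median 0.57), beside 13.0% and 11.5% of all genes (median 0.07). They were Ece2, with 71 and 1 UMIs (log2 2.62, 1.07 to 8.92), and the peptidase gene Mme, with 81 and 1 UMIs (log2 2.80, 1.27 to 9.11). In stomach over esophagus 3 of 6 were higher and 1 lower (median 1.05), beside 5.40% and 4.03% of all genes (median 0.11), with the peptidase gene Ecel1 past 4-fold at 5.13 against 0.381 CPM. In Neural cells at E15 and in the pup, 0 of the 7 had 20 UMIs.

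Of 26 genes linked to Hirschsprung disease or enteric progenitors, 24 were in the table and 22 had enough UMIs in Neural and Stromal cells, with 11 higher and 5 lower in Neural cells (median 0.94), beside 14.0% and 12.8% of all genes (median 0.16). Some genes of this list, such as Sox10, Foxd3 and Erbb3, are also among the markers that checked the Neural label. Among those past 4-fold higher were the transcription factor genes Foxd3 (381 against 0.678 CPM), Sox10 (238 against 0.709 CPM), Phox2a (142 against 0.246 CPM), Hand2 (542 against 43.5 CPM) and Tfap2a (12.5 against 0.801 CPM). So were Erbb3, the neuregulin receptor gene (189.6 against 5.39 CPM), the adhesion gene L1cam (80.1 against 1.42 CPM) and Tlx2, which had 0 UMIs in Stromal cells and was at least 404-fold higher in Neural cells. Past 4-fold lower were the secreted guidance genes Sema3a (2.94 against 120.0 CPM) and Sema3d (6.94 against 46.9 CPM), and Nrg1, the neuregulin ligand gene (4.01 against 30.9 CPM). As with Gdnf and Edn3, these 3 ligand genes were higher in Stromal cells.

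In Neural cells at E15 over pup, 6 of 19 genes of that list were higher and 4 lower (median -0.62), beside 17.0% and 14.6% of all genes (median 0.07). The higher ones past 4-fold included Phox2a (437 UMIs against 1, log2 4.75, 3.26 to 11.06), Hoxb5 (147 UMIs against 3, log2 2.19, 1.02 to 4.89) and Tlx2 (at least 4.72-fold). The lower ones past 4-fold were Sema3c (93.8 against 511 CPM), Sema3d (5.84 against 25.5 CPM) and L1cam (49.4 against 284 CPM). The 3 higher genes named encode transcription factors, and Ret, a receptor gene, was higher at E15 as well.

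Between muscle and fibroblasts 2 of 20 genes of the list were higher and 4 lower in muscle (median -0.23), beside 6.59% and 12.0% of all genes (median -0.17), with Hand2 higher (182 against 43.5 CPM) and Zeb2 (123 against 700.0 CPM), Nrp1 (33.7 against 155 CPM) and Sox10 (1 UMI against 23, log2 -2.004, -8.31 to -0.32) lower past 4-fold. At E15 over pup in both labels, 1 of 16 was higher (Sema3a, 107 against 45.0 CPM, named after its value was seen) and 0 lower (median -0.01), beside 13.0% and 11.5% of all genes (median 0.07). In stomach over esophagus 3 of 16 were higher and 4 lower (median 0.07), beside 5.40% and 4.03% of all genes (median 0.11), with Hand2 (121 against 20.6 CPM) and Nrg1 (43.3 against 5.79 CPM) among those past 4-fold.

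Genes whose levels ran most like those of 4 members were listed by Pearson's r of log2(CPM + 10) over 55 groups of label, region and stage with at least 20 cells, among 13555 genes with at least 200 UMIs. The groups share 1 library and differ in depth, so r is a description. For Gdnf the nearest were Emilin3 (0.86), Gna14 (0.84), the smooth muscle regulator gene Myocd (0.83), Pakap (0.83) and Psd (0.83). For Edn3 they were Plagl1 (0.74), Slc38a4 (0.70), Igf2r (0.68), Foxf1 (0.67) and Ghr (0.67).

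For Ret the nearest were the neuronal tubulin gene Tubb3 (0.95), Nfasc (0.95), Elavl3 (0.94), Celf3 (0.94) and Srrm4 (0.93). For Ednrb they were Cep170 (0.79), Tspan18 (0.78), Zfp281 (0.78), Zfp536 (0.78) and Dennd5a (0.77). The nearest genes were closest for Ret and least close for Edn3 among these 4.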

How the data were processed

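Per the labels and methods, the authors counted UMIs with Cell Ranger 6.1.1 on mm10 (both also in the submitters' processing notes), tied each cell to a region and stage through its tag, screened out doublets and poor cells through thresholds on UMIs, detected genes and mitochondrial share, and deposited raw UMI counts without normalization. The mitochondrial percent, cluster number and label of each cell were also deposited, and the percent served in 1 alternative. No further doublets were removed. Tags in both deposited lists matched for 7808 of 7808 cells.

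UMIs were summed per label, region and stage and scaled to CPM. With no replicates, no model was fitted, and the 95% intervals cover counting error only. Thinning drew 5000 UMIs per cell (seed 1). Ratios were checked on simulated data with known folds. The 8 genes, pathway lists and marker lists were chosen with earlier results of these data known. Named genes are the 8, in groups of at least 20 cells, list genes past 4-fold with at least 20 UMIs over both groups, and the 5 nearest genes of 4 members. Edn1 and Sema3a at E15 over pup fell outside this rule and were named after their values were seen. Some genes of the lists are not reported here by name. Alternatives were the mean of single-cell CPM, filters on cells, another library size, marker-checked cells, equal weights for groups, a smaller added count and leaving out each region. Promoter sequences are from RefSeq (GRCm38.p6). Scripts ran in Python 3.11.15 with scipy 1.17.1, numpy 2.4.6, matplotlib 3.10.9 and pandas 2.3.3.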

Additional observations from a re-analysis of the deposited data

Results flagged for a closer look

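With the stomach set against the esophagus, 3 of the genes ran one way in Stromal and the other way in Smooth Muscle cells, and with 1 pooled sample per group none of these differences was tested. Ednrb at E19 had a log2 ratio of 2.63 in Stromal and -4.16 in Smooth Muscle cells, and in the pup 2.70 and -1.44. The pup muscle cells of both regions came mostly from different clusters, so region and cluster cannot be told apart there. The same holds for most Stromal cells at E19, from cluster 1 in the esophagus and cluster 0 in the stomach. Gfra2 at E19 was at 1.45 and -3.65. Ece1 at E15 was at 0.47 in Stromal and -0.74 in Smooth Muscle cells.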

How the results depend on the processing

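Over 14 ratios and 150 alternatives, 122 values stayed within the counting interval of the reported log2 ratio, 28 moved beyond it and 0 turned the sign of a ratio of at least 2-fold. None moved with 0.5 UMI added, with stricter cell filters, without the 2% deepest cells or with mitochondrial, ribosomal and hemoglobin genes left out of the library size. The cause of the moves below was not tested. As a mean of single-cell CPM, Neural over Stromal was 6.16 for Ret and 2.87 for Ednrb, and Smooth Muscle over Stromal 0.58 for Gdnf and 0.48 for Ece1. Once the 1% of cells richest in the gene were left out, Neural over Stromal was 11.21 for Ret, 2.95 for Ednrb, 4.02 for Gfra1 and 2.05 for Gfra2, and Smooth Muscle over Stromal 1.36 for Gdnf and 1.85 for Nrtn. For Ret this left no Stromal UMI, so its value is set by the UMI added to the sum. In cells whose own marker list held at least as many UMIs as any other list, Neural over Stromal was 2.63 for Ednrb and 1.51 for Gfra2, Smooth Muscle over Stromal 1.48 for Gdnf, and Neural E15 over pup 0.42 for Ednrb. With equal weights, Edn3 in muscle over Stromal was -0.049 and Gdnf in stomach over esophagus 0.64.

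Leaving out the esophagus gave Neural over Stromal values of 8.22 for Ret, 2.43 for Ednrb and 3.25 for Gfra1. Leaving out the GE-SCJ gave 2.85 for Ednrb there and 2.01 for Gdnf at E15 over pup. Leaving out the stomach gave 3.06 for Ednrb, 4.07 for Gfra1 and 2.08 for Gfra2 there, Smooth Muscle over Stromal values of 1.55 for Gdnf, 0.44 for Edn3 and 0.40 for Ece1, and 0.19 for Gdnf at E15 over pup. Of the alternatives chosen after seeing the data, glia-like cells alone gave 1.4998 for Ednrb at E15 over pup, and splitting Neural cells by Elavl4 against Sox10 moved 6 of 8 ratios between neuron-like and glia-like cells. Requiring one list to hold 2 times the other moved 1 of 8. No paired analysis was possible because each region and stage is 1 pooled sample without replicates. Depth limits the pup and adult groups most, where many sums hold under 20 UMIs.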
